A study of Mus musculus with 35 samples.

Results

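Immediate early genes are transcribed within minutes of a stimulus from factors that are already present in the cell. The 10 described here are Fos, Jun, Junb, Atf3, Egr1, Egr2, Nr4a1, Zfp36, Klf6 and Dusp1, out of 12393 mouse genes measured. They were taken by symbol. The array carried 14 probe sets for them, and for each gene the probe set with the highest mean over all 35 arrays was used, a choice that does not look at the groups.

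Levels are log2 intensities of Affymetrix Mouse 430A2 arrays. A difference of 1 is therefore a 2-fold change, and levels of different genes cannot be set against each other because each probe set binds its target differently. The 22 arrays of sorted, wild-type B cells covered 6 stages. Bone marrow gave 3 of them: pro-B cells (n = 3; CD43-high and IgM- among B220+ cells, with replicates 1 and 2 of strain 129 and replicate 3 of strain B6), pre-B cells (n = 3; CD43-low and IgM- among B220+ cells, strain 129) and plasma cells (n = 3; Cd138+ and Cd93- among B220-low cells, strain B6). The spleen gave transitional B cells (n = 4; Cd93+ among B220+ cells, strain 129), germinal centre B cells (n = 5; PNA-high among B220+ cells, strain B6) and plasmablasts (n = 4; Cd138+ and Cd93- among B220+ cells, strain B6). The 13 other arrays were lymphoid tumours, called here by their titles. Bcl6 Trans tumours carried a Bcl6 knock-in in a strain labelled Bcl6 transgenic (n = 4), Myc/Bcl6 tumours came from mice transgenic for both genes (n = 3), and Lig4/P53 KO tumours from mice lacking both Lig4 and p53 (n = 6). The tumours were not sorted. The ages of the mice, the promoters that drive the transgenes, and whether replicates were separate mice or pools are not given in the sources used here. P-values therefore measure the spread between these arrays, which may be partly technical.

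Fos, Jun and Junb are subunits of AP-1, a dimeric transcription factor, and Atf3 is a related leucine zipper protein that can pair with them. Egr1, Egr2 and Klf6 are zinc finger transcription factors, and Nr4a1 is an orphan nuclear receptor. Zfp36 (tristetraprolin) binds AU-rich messenger RNAs and promotes their decay, and Dusp1 is a phosphatase that switches off MAP kinases, so both act as brakes on the same response. In B cells these genes are induced by signals through the B-cell receptor and by other growth and stress signals. They are also known to be induced while tissue is taken apart and cells are sorted.

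Serum response factor bound at CArG boxes, and CREB or ATF proteins bound at cyclic AMP response elements (CRE), are the classical entry points to these promoters. The stretches below are from RefSeq (GRCm38.p6), 5′ to 3′ on the gene's strand, and are shown because the members described here moved together in several comparisons. Capitals mark the motifs searched that lie wholly within a stretch. The Egr2 stretch ends inside a TGACG match on the other strand, which is left in lower case. The first 4 are the 150 bases just before the annotated start, and the last is 30 bases around a CArG box.
Fos, chr12:85473740-85473889, plus strand: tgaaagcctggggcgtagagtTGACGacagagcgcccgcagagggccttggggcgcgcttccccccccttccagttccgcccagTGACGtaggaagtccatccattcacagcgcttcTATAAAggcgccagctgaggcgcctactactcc
Junb, chr8:84978749-84978898, minus strand: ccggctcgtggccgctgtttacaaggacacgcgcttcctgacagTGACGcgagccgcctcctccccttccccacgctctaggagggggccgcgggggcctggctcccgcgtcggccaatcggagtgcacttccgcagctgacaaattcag
Zfp36, chr7:28379229-28379378, minus strand: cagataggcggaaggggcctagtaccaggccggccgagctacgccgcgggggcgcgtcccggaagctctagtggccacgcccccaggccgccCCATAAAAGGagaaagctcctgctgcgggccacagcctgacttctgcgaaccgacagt
Dusp1, chr17:26508473-26508622, minus strand: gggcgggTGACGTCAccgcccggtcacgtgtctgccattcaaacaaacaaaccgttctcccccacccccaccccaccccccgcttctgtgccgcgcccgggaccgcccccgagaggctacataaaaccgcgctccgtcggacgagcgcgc
Egr2, chr10:67537787-67537816, plus strand: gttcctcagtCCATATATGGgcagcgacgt

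The search covered both strands of the 250 bases before each start, in 13 windows of 9 members, and in all 32851 windows of the table. A CArG box was found for Egr2 and Zfp36 (1.47% of all windows had a match). The full CRE, TGACGTCA, was found for Dusp1 alone of these members (1.55% of all windows), 143 bases before its start. The short CRE form TGACG, which the full CRE contains, was found for 6 members: Fos, Junb, Atf3, Egr2, Nr4a1 and Dusp1 (17.77% of all windows). TATAAA was found for Fos, 33 bases before its start (12.37%). The AP-1 site TGANTCA (6.75%) and the EGR site GCGTGGGCG (0.54%) had no match in the windows of these members. Members are counted by gene and the percentages by window, and a gene with several windows, such as Egr2, had more chances to match. Whether the motifs are more frequent in the members was not tested. These are letter matches in short windows and not measured binding.

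Several arrays stood apart before any member was looked at. Control probe sets for 18S ribosomal RNA lay between 10.04 and 11.28 in the sorted arrays other than plasma cells, but at 4.02, 4.21 and 7.38 in plasma cell replicates 1, 2 and 3 and between 4.14 and 6.15 in tumours. The 3′ minus 5′ signal of the Actb and Gapdh control probe sets, a measure of RNA shortening, was 0.68 to 2.95 in the same sorted arrays, 4.59, 4.46 and 0.451 in the plasma cell arrays, and 2.25 to 4.69 in tumours. The values of Bcl6 Trans replicate 2, pre-B replicate 2 and pro-B replicate 1 had a narrow spread (interquartile ranges of 2.15, 2.03 and 2.09), and these 3 are called the narrow arrays below, a choice known from earlier work on these data and not from a set limit. The 3 Myc/Bcl6 arrays came next at 2.63, 2.85 and 2.33, and every other array was at 3.25 or above, so leaving out the narrow arrays does not leave out the whole low end. Of 5 plasma cell markers, some did not bear out that label and some did. Sdc1, which encodes the sort marker Cd138, was at 3.88 to 5.71 on the arrays labelled plasma cells, below every pre-B array (10.43 to 10.98), and Tnfrsf17, a receptor of plasma cells, was at 4.06 to 4.29 against 3.23 to 5.53 in plasmablasts. Irf4 had a mean of 10.09 on the labelled arrays, below pre-B (11.37), transitional (11.70) and germinal centre B cells (10.33) and plasmablasts (10.83). Of the sorted stages only pro-B cells had a lower mean (8.36, with arrays at 2.52, 10.79 and 11.76). Prdm1, the factor that drives plasma cell differentiation, had its highest group mean on the arrays labelled plasma cells (7.01, arrays from 6.90 to 7.07). Xbp1, a secretory factor, was at 7.66 there, above every sorted stage but plasmablasts (7.92). Bcl6, which plasma cells switch off, had its lowest mean there (3.62). These 3 arrays are called "labelled plasma cells" below. B-cell markers were mixed in the tumours. Cd79a, part of the B-cell receptor, was at 6.80 to 7.22 in Bcl6 Trans and 5.51 to 7.54 in Myc/Bcl6 tumours, against 9.01 to 12.57 in sorted arrays and 9.73 to 11.03 in Lig4/P53 KO tumours, and Cd79b and Ebf1 were likewise lower in Bcl6 Trans (means of 8.63 and 6.34) and Myc/Bcl6 tumours (7.80 and 6.35) than in germinal centre B cells (11.58 and 9.79). Ms4a1, which encodes CD20, reached 10.63 and 11.56 in Bcl6 Trans and Myc/Bcl6 tumours (lowest arrays 7.79 and 4.39), against 11.44 to 11.83 in germinal centre and 4.01 to 6.74 in pro-B arrays. Pax5, a B-lineage factor, had means of 4.76 and 4.95 in these tumours and 3.64 in germinal centre B cells. In whole tumours, fewer cells of a type and less RNA per cell cannot be told apart.

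The members fell into a high range and a low range of groups. Spleen stages held the top of the order: transitional B cells had the highest mean for 6 members and germinal centre B cells for the other 4 (Fos, Egr1, Egr2 and Klf6). The lowest mean was in the labelled plasma cells for 4 members (Fos, Jun, Egr1 and Nr4a1), in Lig4/P53 KO tumours for 4 (Junb, Atf3, Egr2 and Dusp1) and in Myc/Bcl6 tumours for Zfp36 and Klf6. Neighbours in the order mostly did not separate: of 80 neighbouring group means, 75 had overlapping array values. The 5 that did not overlap were Junb from transitional to germinal centre B cells, Klf6 from transitional B cells to plasmablasts, Egr2 from pro-B cells to labelled plasma cells, and Zfp36 from pro-B cells to Lig4/P53 KO tumours and from these to labelled plasma cells.

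**Figure D1:**
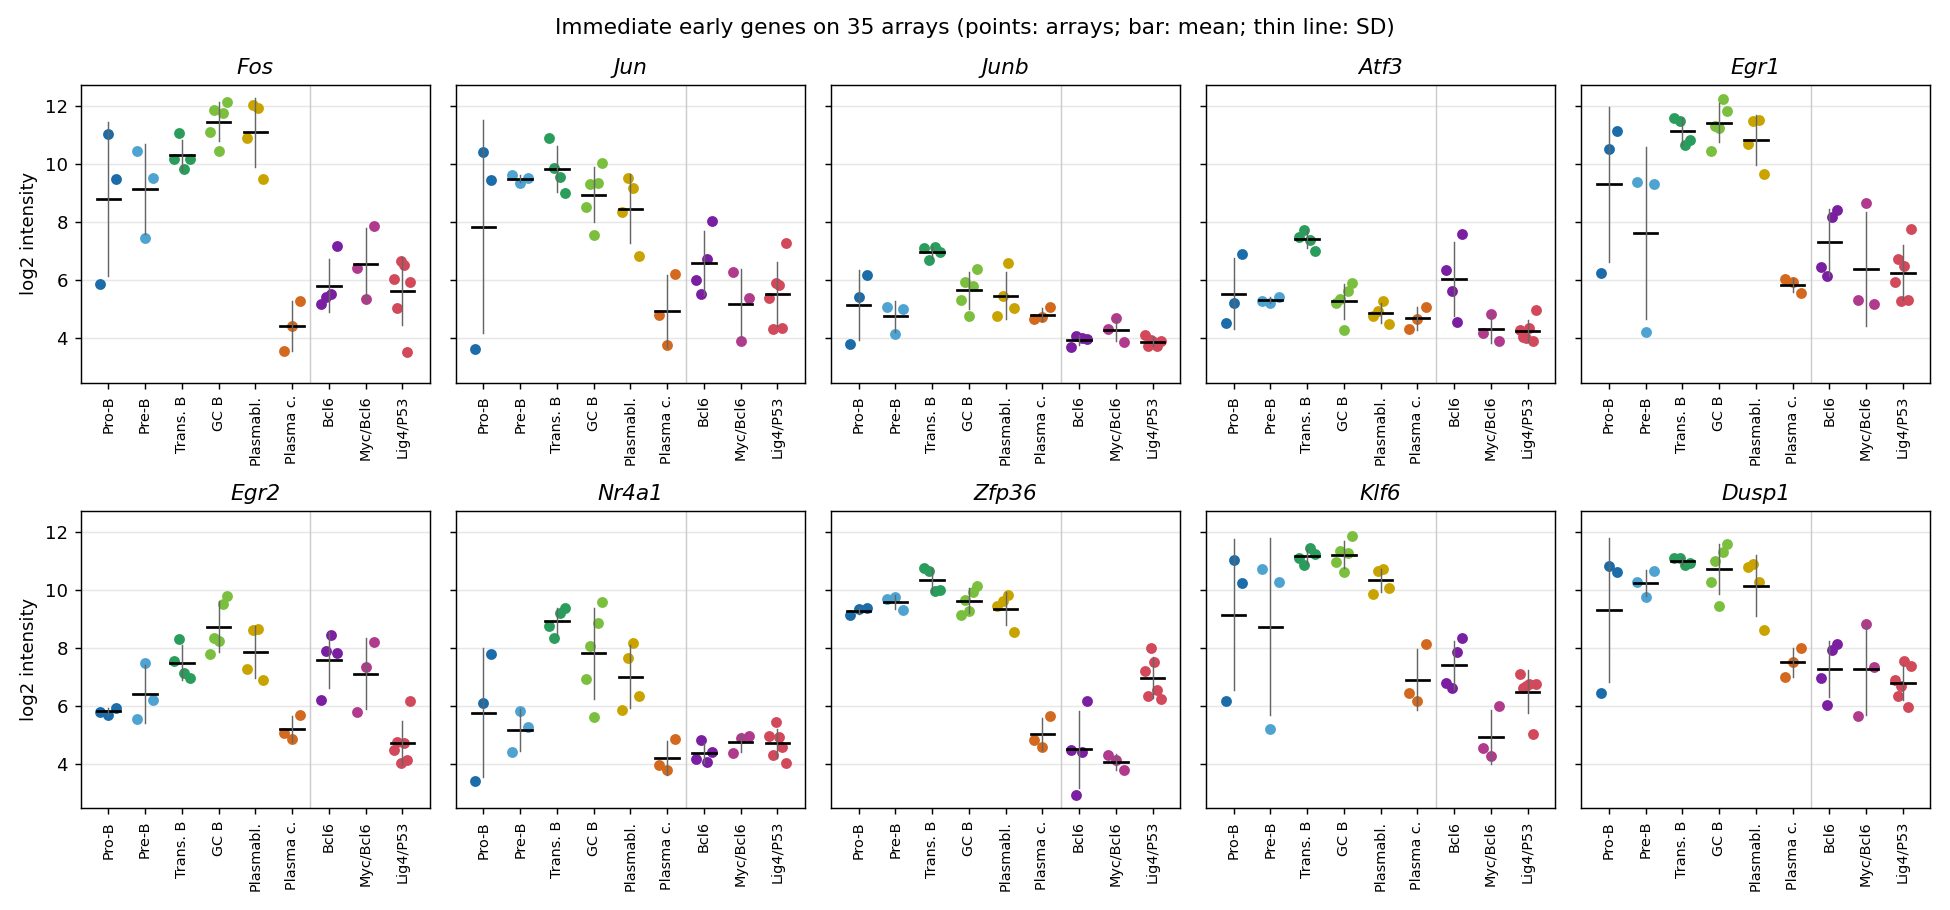
Level of each immediate early gene in log2 intensity (vertical axis) in the 9 groups (horizontal axis; the grey line separates sorted cells from tumours). Points are arrays, bars are means and thin lines are SD; the labelled plasma cells and the tumours lie below most sorted arrays for Fos, Egr1, Zfp36 and Klf6, while Atf3 and Egr2 do not share that split.

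Fos, the best known AP-1 subunit, was at 11.47 ± 0.68 in germinal centre B cells, 11.10 ± 1.17 in plasmablasts and 10.32 ± 0.54 in transitional B cells (mean ± SD, n as above throughout). It was at 9.15 ± 1.55 in pre-B and 8.79 ± 2.66 in pro-B cells, where single arrays set the spread: the pro-B arrays were at 5.86, 11.04 and 9.48, and the pre-B arrays at 10.48, 7.45 and 9.52. The lowest array in each case was the one with a narrow spread of values. Tumour means were 6.55 ± 1.26 in Myc/Bcl6, 5.82 ± 0.91 in Bcl6 Trans and 5.63 ± 1.18 in Lig4/P53 KO, and the labelled plasma cells had 4.44 ± 0.86. All 13 tumours and all 3 labelled plasma cell arrays were below each of the 17 sorted arrays that remain without the labelled plasma cells and the narrow arrays (lowest 9.48).

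Jun, the partner of Fos in AP-1, was at 9.83 ± 0.80 in transitional, 9.51 ± 0.14 in pre-B, 8.96 ± 0.95 in germinal centre B cells and 8.48 ± 1.18 in plasmablasts. Pro-B cells had 7.85 ± 3.67, again with the narrow array low (3.64, against 10.43 and 9.47). It was at 6.58 ± 1.10 in Bcl6 Trans, 5.52 ± 1.11 in Lig4/P53 KO and 5.20 ± 1.19 in Myc/Bcl6 tumours and at 4.93 ± 1.24 in labelled plasma cells. Its second probe set had the same top group and group means of 4.11 to 5.04 in the same 4 low groups.

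Junb and Atf3 peaked sharply in transitional B cells. Junb was at 7.11, 6.70, 7.15 and 6.97 on the transitional arrays, above all 31 other arrays, of which the highest was a plasmablast array at 6.60. Its other means ran from 5.66 ± 0.63 in germinal centre B cells through 5.46 ± 0.81 in plasmablasts, 5.14 ± 1.20 in pro-B cells, 4.82 ± 0.23 in labelled plasma cells and 4.75 ± 0.52 in pre-B cells to 4.30 ± 0.40 in Myc/Bcl6, 3.95 ± 0.17 in Bcl6 Trans and 3.89 ± 0.14 in Lig4/P53 KO tumours. This probe set was dim outside transitional B cells: the median of all values on the arrays was 4.921, so most of its values lay near or below that median.

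Atf3 was at 7.51, 7.75, 7.38 and 7.03 on the transitional arrays. Bcl6 Trans tumours came next at 6.04 ± 1.28, with arrays at 6.35, 5.62, 4.57 and 7.61, so that these tumours spanned most of the range of the gene. Pro-B cells had 5.55 ± 1.22, pre-B cells 5.31 ± 0.11, germinal centre B cells 5.28 ± 0.61, plasmablasts 4.88 ± 0.33 and labelled plasma cells 4.69 ± 0.38. Myc/Bcl6 tumours (4.31 ± 0.49) and Lig4/P53 KO tumours (4.26 ± 0.39) were lowest.

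Egr1 was high in all 3 spleen stages, with 11.44 ± 0.68 in germinal centre B cells, 11.14 ± 0.47 in transitional B cells and 10.85 ± 0.87 in plasmablasts. Pro-B cells had 9.31 ± 2.66 and pre-B cells 7.64 ± 2.97, where the narrow arrays were at 6.25 and 4.22 and the remaining 4 arrays between 9.32 and 11.13. It was at 7.31 ± 1.16 in Bcl6 Trans, 6.39 ± 1.96 in Myc/Bcl6 and 6.26 ± 0.94 in Lig4/P53 KO tumours and at 5.85 ± 0.24 in labelled plasma cells.

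Egr2, its relative, had another order. Germinal centre B cells were highest (8.74 ± 0.86), followed by plasmablasts (7.87 ± 0.91), and Bcl6 Trans tumours (7.60 ± 0.96) and Myc/Bcl6 tumours (7.12 ± 1.22) lay on either side of transitional B cells (7.50 ± 0.60). Pre-B cells had 6.42 ± 0.99, pro-B cells 5.82 ± 0.13, labelled plasma cells 5.21 ± 0.43 and Lig4/P53 KO tumours 4.73 ± 0.77. The position of the Bcl6 tumours depended on the probe set: the other Egr2 probe set had means of 6.43 in Bcl6 Trans and 4.73 in Myc/Bcl6 tumours, with 8.92 in germinal centre and 7.69 in transitional B cells.

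Nr4a1, a gene often read as a mark of B-cell receptor signalling, was highest in transitional B cells (8.92 ± 0.47), then in germinal centre B cells (7.82 ± 1.57, arrays from 5.64 to 9.59) and plasmablasts (7.01 ± 1.07). Pro-B cells had 5.77 ± 2.21 and pre-B cells 5.18 ± 0.71. The 4 low groups lay close together, with 4.75 ± 0.32 in Myc/Bcl6, 4.71 ± 0.50 in Lig4/P53 KO and 4.38 ± 0.34 in Bcl6 Trans tumours and 4.21 ± 0.58 in labelled plasma cells.

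Klf6 was at 11.23 ± 0.47 in germinal centre, 11.16 ± 0.25 in transitional B cells and 10.33 ± 0.41 in plasmablasts. Pro-B cells had 9.15 ± 2.60 and pre-B cells 8.74 ± 3.06, with the narrow arrays at 6.18 and 5.22 and the remaining 4 between 10.24 and 11.03. It was at 7.41 ± 0.83 in Bcl6 Trans tumours, 6.92 ± 1.06 in labelled plasma cells, 6.50 ± 0.74 in Lig4/P53 KO and 4.94 ± 0.92 in Myc/Bcl6 tumours. Both other Klf6 probe sets were lower in these 4 groups (means of 2.57 to 4.07) than in any other group (5.80 to 8.06).

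Zfp36, the RNA decay factor, held a narrow range within each sorted stage. It was at 10.35 ± 0.42 in transitional, 9.64 ± 0.43 in germinal centre, 9.59 ± 0.23 in pre-B, 9.36 ± 0.56 in plasmablast and 9.29 ± 0.12 in pro-B arrays, and the narrow pro-B and pre-B arrays (9.16 and 9.76) were like their replicates. Lig4/P53 KO tumours were intermediate at 6.98 ± 0.71 (arrays from 6.24 to 8.0). Labelled plasma cells had 5.04 ± 0.56, Bcl6 Trans tumours 4.51 ± 1.33 and Myc/Bcl6 tumours 4.07 ± 0.27.

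Dusp1, the MAP kinase phosphatase, was at 11.01 ± 0.13 in transitional, 10.74 ± 0.87 in germinal centre, 10.24 ± 0.44 in pre-B and 10.15 ± 1.05 in plasmablast arrays. Pro-B cells had 9.31 ± 2.47 (arrays at 6.46, 10.84 and 10.64). Labelled plasma cells had 7.50 ± 0.50, and the tumours 7.28 ± 1.59 in Myc/Bcl6, 7.27 ± 0.96 in Bcl6 Trans and 6.81 ± 0.61 in Lig4/P53 KO.

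**Figure D2:**
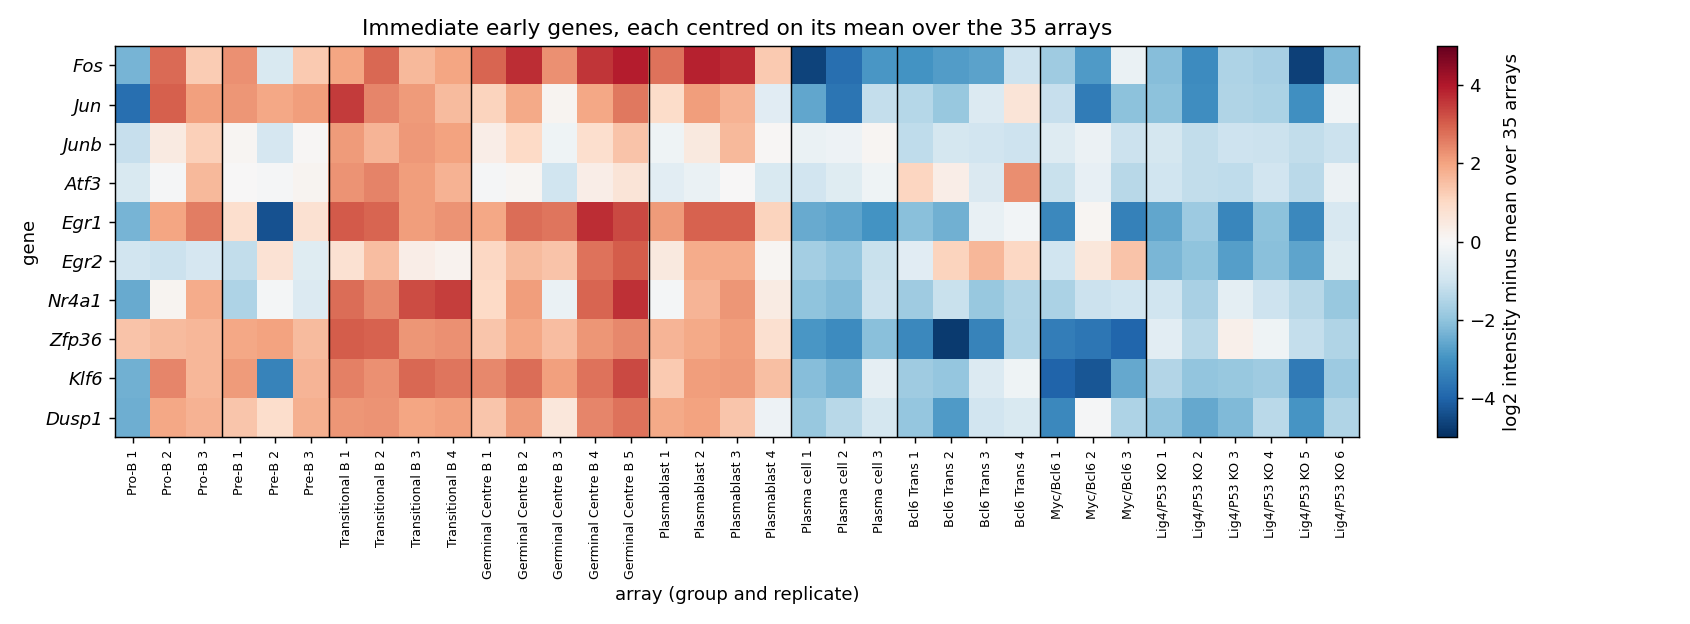
Each immediate early gene (rows) on each of the 35 arrays (columns, with black lines between groups), as log2 intensity minus the gene's mean over all arrays; red is above and blue below that mean. Pro-B 1 and Pre-B 2 stand out from their replicates, and the columns from Plasma cell 1 to the right are mostly blue except Atf3 and Egr2 in Bcl6 Trans tumours and Egr2 in Myc/Bcl6 tumours.

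All 10 members varied among the 6 sorted stages (F-test in limma, adjusted p from 1.44e-08 for Zfp36 to 0.0158 for Jun), as did 32.5% of all genes. From pro-B to pre-B cells 0 members were called and 0 had an unadjusted p under 0.05 (0.161% of all genes were called; a call is a Benjamini-Hochberg adjusted p under 0.05 over all 12393 genes). The member differences ran from -1.67 to 1.66, with standard errors up to 1.15, so that this step was measured too coarsely to show a difference of that size.

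From pre-B cells of the bone marrow to transitional B cells of the spleen 4 members rose, and 5.84% of all genes were called (2.93% higher). Nr4a1 was higher by 3.75 ± 0.87 on the log2 scale (difference ± SE, 13.4-fold; adjusted p = 0.0115). Egr1 was higher by 3.50 ± 1.03 (11.3-fold; adjusted p = 0.048), Junb by 2.23 ± 0.49 (4.68-fold; adjusted p = 0.00822) and Atf3 by 2.11 ± 0.44 (4.31-fold; adjusted p = 0.00488). The arrays of these 4 genes did not overlap between the stages, nor did those of Zfp36, Klf6 and Dusp1, which were not called. How many of all genes separate like this at this step was not counted. With limma's array weights 0 members were called, with adjusted p of 0.084 to 0.163 for these 4 (5.12% of all genes were called). The other 6 members had positive differences of 0.32 to 2.43 that did not pass, and the median over the members was 1.64, against 0.04 over all genes. The size of the Egr1 difference depends on pre-B replicate 2, the narrow array: without it the difference was 1.79, with an adjusted p of 0.276 when pro-B replicate 1 stayed in the fit and 0.0158 when the narrow arrays were left out together. Over 16 alternatives the adjusted p for Egr1 ran from 0.0158 to 0.276 and the call was lost in 9, among them each fit without 1 of the 4 transitional arrays (0.0745 to 0.105). Granulocyte marker genes moved with this step, and their summed level was 13.82 to 14.85 in pre-B and 7.44 to 10.91 in transitional arrays. All 9 granulocyte markers were called lower, as were 3 of 6 erythroid markers, and their part in the member differences was not tested.

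Among 36 other measured early response genes, 7 rose at the same step and 0 fell. They included Ier5 (2.34 ± 0.35), a nuclear early response protein, Maff (2.96 ± 0.53), a small Maf transcription factor, Rgs1 (3.95 ± 0.98), which shortens G protein signals, and Per1 (2.63 ± 0.68), a clock gene. Of 10 measured upstream regulators, such as Srf, Elk1 and Creb1, 0 were called and 3 had an unadjusted p under 0.05. Of 10 heat shock genes, which report on protein stress, 0 were called and 2 had an unadjusted p under 0.05.

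From transitional to germinal centre B cells Atf3 fell by 2.14 ± 0.39 (adjusted p = 0.00128) and Junb by 1.33 ± 0.43 (adjusted p = 0.0462), while 13.5% of all genes were called (8.21% lower). The other 8 members did not pass, with differences from -1.11 (Nr4a1) to 1.24 (Egr2, adjusted p = 0.085). The Junb call is at the edge of the threshold: it was lost without any of the 4 transitional arrays and without germinal centre replicates 1, 2, 3 or 4 (adjusted p of 0.0681 to 0.12). This step is also a change from strain 129 to B6. With strain as a covariate, which only the pro-B arrays inform, Atf3 alone was called. Among the other early response genes 7 fell and 0 rose, with the smallest p for Klf2 (-2.36 ± 0.38), a zinc finger factor of quiescent lymphocytes, Sik1 (-3.06 ± 0.51), a kinase, Fosl2 (-1.95 ± 0.37), an AP-1 subunit, and Maff (-2.24 ± 0.47). Markers of several other cell types moved the other way. Granulocyte markers were higher in germinal centre arrays (8 of 9 called; summed level 11.61 to 13.96, against 7.44 to 10.91 in transitional arrays), and so were NK cell markers (6 of 7; 10.18 to 12.05 against 7.95 to 8.33), T-cell markers (5 of 9; 9.50 to 10.72 against 8.21 to 8.66) and macrophage and dendritic cell markers (6 of 12; 10.47 to 11.96 against 9.24 to 10.39). Their part was not tested.

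From germinal centre B cells to plasmablasts, both from spleens of strain B6, 0 members were called in limma and 0 had an unadjusted p under 0.05 (0.678% of all genes were called). All 10 differences were negative but small, from -0.90 (Klf6) to -0.19 (Junb), with a median of -0.54 against 0.05 over all genes. Of the other early response genes 0 were called and 5 had an unadjusted p under 0.05.

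**Figure D3:**
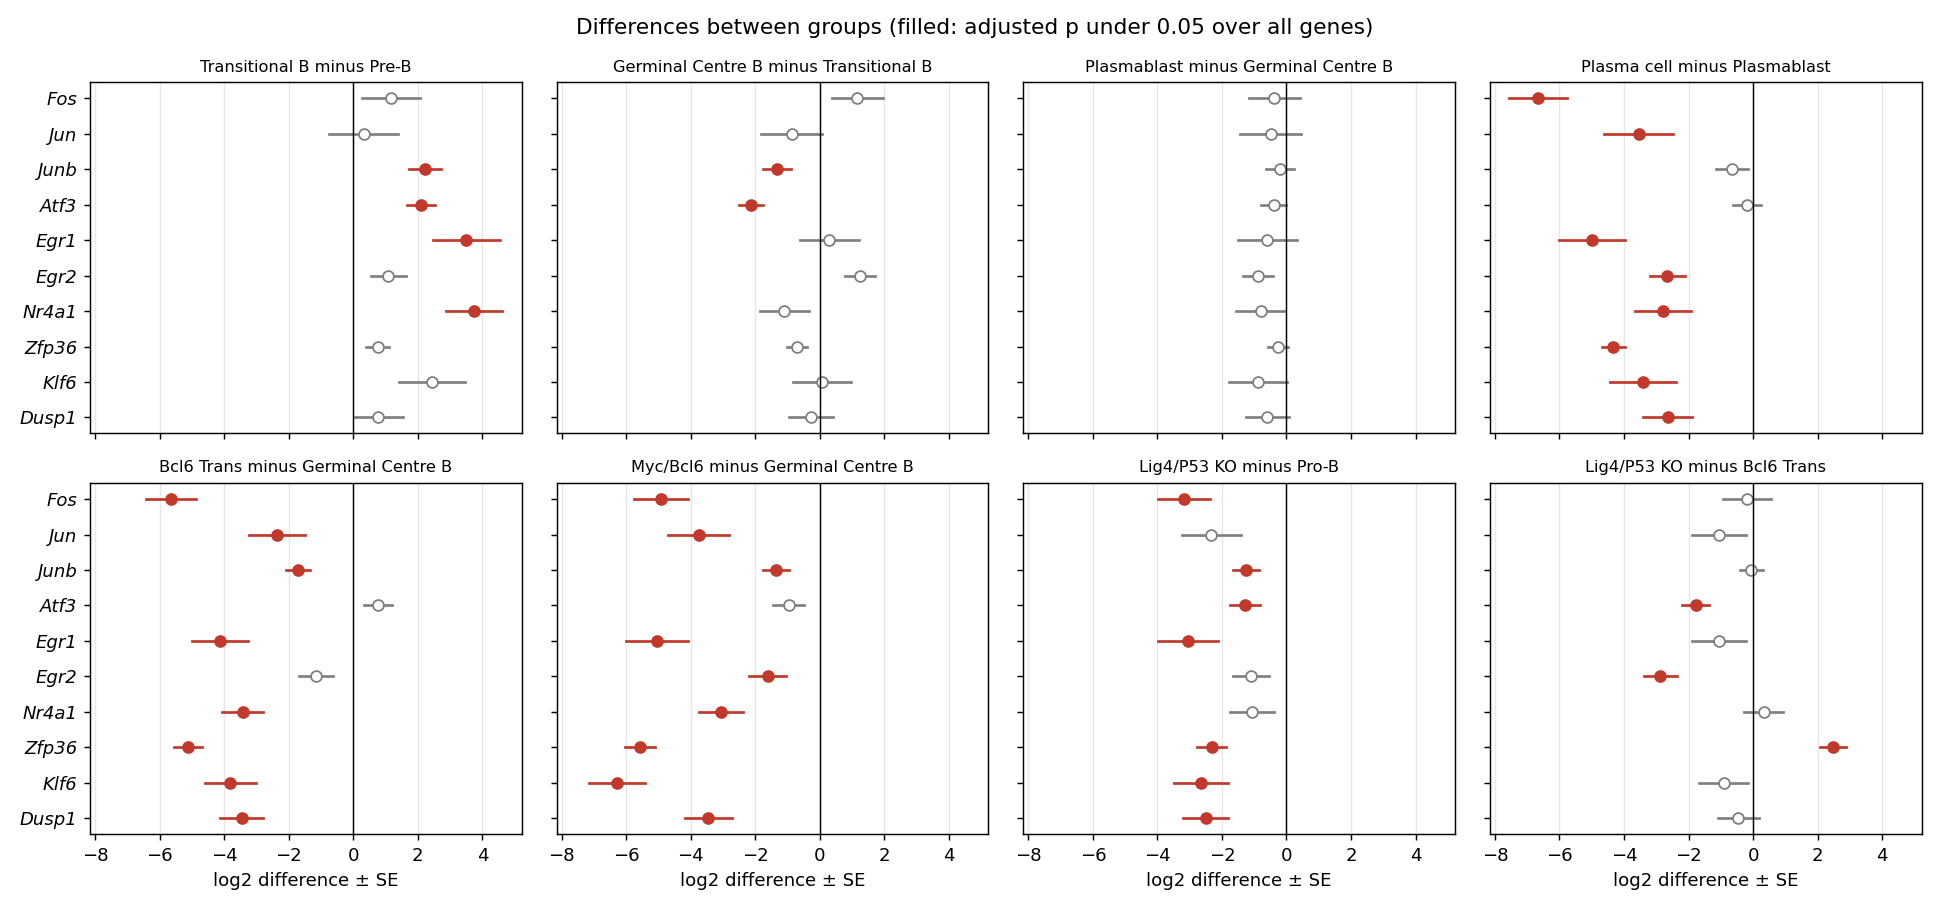
Log2 difference between groups (horizontal axis; bars are ± SE from limma) for each immediate early gene in 8 comparisons; filled red points have an adjusted p under 0.05 over all genes. The 4 calls above 0 from pre-B to transitional B cells and the 8 calls below 0 from plasmablasts to labelled plasma cells lie on opposite sides of the line, and Zfp36 is the 1 call above 0 among the 4 tumour panels.

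From plasmablasts to the arrays labelled plasma cells 8 members fell, where 14.3% of all genes were called and 5.39% were lower. Fos fell by 6.66 ± 0.90 (101-fold; adjusted p = 2.17e-05): its plasmablast arrays were at 10.92, 12.03, 11.93 and 9.51 and the labelled plasma cell arrays at 3.58, 4.44 and 5.30. Zfp36 fell by 4.33 ± 0.35 (20.1-fold; adjusted p = 2.83e-08), from 9.44, 9.64, 9.83 and 8.55 to 4.84, 4.6 and 5.67. Egr1 fell by 4.99 ± 1.03 (31.9-fold; adjusted p = 0.00192), from 10.69, 11.50, 11.51 and 9.68 to 6.05, 5.93 and 5.58. For each of these genes a wide gap separated the lowest plasmablast array from the highest labelled plasma cell array.

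The 5 other calls were smaller and lay between a fall of 3.54 ± 1.07 for Jun (adjusted p = 0.029) and a fall of 2.64 ± 0.77 for Dusp1 (adjusted p = 0.0225), with Klf6 (-3.42 ± 1.02), Nr4a1 (-2.80 ± 0.87) and Egr2 (-2.65 ± 0.54) between them. None of the 8 overlapped between the groups, and how many of all genes do likewise was not counted. Junb (-0.64 ± 0.49, adjusted p = 0.479) and Atf3 (-0.20 ± 0.44, adjusted p = 0.843) did not pass and overlapped. Without plasma cell replicate 1, plasma cell replicate 2 or plasmablast replicate 2 the count was 4 each time. Without plasmablast replicate 3 it was 5. Over all fits with 1 array left out, 9.21% to 14.9% of all genes were called.

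The shift moved with the control probe sets, since labelled plasma cell replicates 1 and 2 had both the low 18S signal and the high 3′ minus 5′ signal. Replicate 3 had the lowest 3′ minus 5′ signal of all arrays (0.451) and an 18S signal of 7.38, and it was also low in the members: it was below all 4 plasmablast arrays for the same 8 members. With replicate 3 as the only labelled plasma cell array, the differences were -5.80 for Fos, -3.70 for Zfp36 and -5.27 for Egr1. They were -2.255 to -2.137 for Jun, Egr2, Nr4a1, Klf6 and Dusp1. A single array gives no spread of its own, so this fit assumes that it varies like the other groups. With the 3′ minus 5′ signal as a covariate 4 members were called, and the share of all genes called is not given here. With the 18S signal as a covariate 0 members were called, when 0.888% of all genes were called. The 18S signal lies almost wholly between the groups, so its part and that of the group cannot be told apart. Granulocyte markers fell in the same comparison (7 of 9; summed level 11.58 to 13.24 in plasmablasts and 6.33 to 7.22 in labelled plasma cells), and so did 4 of 5 B-cell and 4 of 12 macrophage and dendritic cell markers; their part was not tested.

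Other early response genes did not all follow: 6 of 36 fell and 2 rose. Klf2 fell by 5.81 ± 0.43 (adjusted p = 8.74e-09), Zfp36l2, a relative of Zfp36, by 3.22 ± 0.83 and Dusp6, a phosphatase of ERK, by 3.46 ± 0.92. Maff rose by 1.82 ± 0.53. Of the 10 upstream regulators 0 were called, with 5 at an unadjusted p under 0.05, and of the 10 heat shock genes 2 rose and 1 fell.

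Set against the mean of the 5 other sorted stages, a comparison added after the member values were seen, the labelled plasma cells were lower in 8 members, with 20.2% of all genes called and 7.14% lower. The exceptions were again Junb (-0.78 ± 0.40, adjusted p = 0.205) and Atf3 (-1.0 ± 0.36, adjusted p = 0.0522). For 6 members, Fos, Jun, Egr1, Zfp36, Klf6 and Dusp1, each labelled plasma cell array was below each of the 17 sorted arrays without the narrow ones. When the narrow arrays were kept, only Fos and Zfp36 did not overlap. How many of all genes separate like this was not counted. All 9 granulocyte, 6 of 7 NK cell, 5 of 9 T-cell and 5 of 12 macrophage and dendritic cell markers were lower in the same comparison, and their part was not tested.

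Taking the 3 spleen stages together against the 3 bone marrow groups, 8 members were higher in spleen, and 17.9% of all genes were called (8.34% higher). The differences among them ran from 1.13 ± 0.28 for Junb (adjusted p = 0.00756) to 3.54 ± 0.59 for Egr1 (adjusted p = 0.000209). Jun (1.66 ± 0.61, adjusted p = 0.0637) and Atf3 (0.68 ± 0.25, adjusted p = 0.0634) did not pass. Arrays of every member overlapped between spleen and bone marrow. The bone marrow side includes the labelled plasma cells and both narrow sorted arrays. For each called member but Junb, the labelled plasma cells had the lowest of the 3 bone marrow means. Zfp36 was at 9.29 in pro-B, 9.59 in pre-B and 5.04 in labelled plasma cells, against 9.36 to 10.35 in spleen stages. The part of the labelled plasma cells in these differences was not tested. With the 18S signal as a covariate 2 members and 6.48% of all genes were called. Of the other early response genes 12 rose and 1 fell, and of the upstream regulators 3 rose. Markers of other cells moved too: 5 of 9 granulocyte markers were lower in spleen, and 4 of 5 B-cell, 3 of 7 NK cell and 3 of 9 T-cell markers were higher. Their part was not tested.

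Against germinal centre B cells, the normal cells that depend on Bcl6, 8 members were lower in Bcl6 Trans tumours, where 26.8% of all genes were called (13.9% lower). Fos was lower by 50.3-fold: the germinal centre arrays were at 11.11, 11.89, 10.48, 11.77 and 12.13 and the tumours at 5.19, 5.41, 5.52 and 7.17 (log2 difference -5.65 ± 0.76, adjusted p = 1.71e-06). Zfp36 was lower by 34.9-fold, with 9.14 to 10.14 in germinal centre arrays and 4.5, 2.94, 4.41 and 6.19 in tumours (-5.13 ± 0.43, adjusted p = 2.38e-10). Neither gene overlapped between the groups.

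The remaining calls in Bcl6 Trans tumours were Egr1 (-4.13 ± 0.87), Klf6 (-3.82 ± 0.79), Dusp1 (-3.47 ± 0.66), Nr4a1 (-3.43 ± 0.64), Junb (-1.70 ± 0.37) and Jun (-2.38 ± 0.87, adjusted p = 0.041). The Jun call is near the threshold and its arrays overlapped: of 18 alternatives it was lost in 11 and changed direction in 1 (adjusted p of 0.00881 to 0.987), among them the fits without germinal centre replicates 1, 2, 4 or 5 and without Bcl6 Trans replicates 1, 2 or 3 (0.0522 to 0.147). Atf3 (0.75 ± 0.44, adjusted p = 0.198) and Egr2 (-1.15 ± 0.52, adjusted p = 0.103) did not pass. The other Egr2 probe set had means of 6.43 in Bcl6 Trans tumours and 8.92 in germinal centre B cells and was not tested alone. Of the 36 other early response genes 18 fell and 4 rose. Those that rose were Socs3 (3.79 ± 0.64), an inhibitor of cytokine signalling, Ccn1 and Ccn2, which encode secreted matrix proteins, and Maff, of which Ccn1, Ccn2 and Maff were named after their values were seen. Ppp1r15a, a stress-induced phosphatase subunit, had the smallest p (-3.61 ± 0.48), and Fosb (-4.26 ± 0.60) and Dusp2 (-2.80 ± 0.44) also fell. Of the upstream regulators 5 of 10 fell and 0 rose.

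Myc/Bcl6 tumours were lower than germinal centre B cells in 9 members, and 48.1% of all genes were called in this comparison (20.9% lower). Klf6 had the largest difference, 77.9-fold, with germinal centre arrays from 10.62 to 11.88 and tumours at 4.55, 4.28 and 6.0 (-6.28 ± 0.86, adjusted p = 1.37e-06). Zfp36 (-5.56 ± 0.46), Egr1 (-5.04 ± 0.95) and Fos (-4.92 ± 0.83) followed, and only Atf3 did not pass (-0.97 ± 0.47, adjusted p = 0.0889). Egr1 was uneven among the tumours, at 5.34, 8.66 and 5.18. Of the other early response genes 17 fell and 4 rose; Btg1, an antiproliferative gene, fell by 5.48 ± 0.71 and Ccn2 rose by 2.85 ± 0.45.

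Both Bcl6 tumour groups are unsorted tissue, while the germinal centre B cells were sorted, so sorting and tumour status cannot be told apart. Genes of other cells moved with these tumours. The summed level of stromal and vessel markers was 9.81 to 11.16 in Bcl6 Trans and 10.10 to 11.34 in Myc/Bcl6 tumours and 7.29 to 7.97 in germinal centre arrays. That of macrophage and dendritic cell markers was 13.08 to 14.27 and 12.54 to 14.12 in the tumours and 10.47 to 11.96 in germinal centre arrays. Markers of B cells ran from 9.89 to 11.11 and from 8.57 to 11.75 in the tumours and from 13.05 to 13.35 in germinal centre arrays. NK cell markers were lower in the tumours (7 of 7 called in Bcl6 Trans, 6 of 7 in Myc/Bcl6), as were granulocyte markers (5 of 9 in each) and T-cell markers (3 of 9 and 6 of 9). Their part in the member differences was not tested. With the 3′ minus 5′ signal as a covariate 2 members were called in Bcl6 Trans and 5 in Myc/Bcl6 tumours. The shares of all genes called with it are not given here, so a fall particular to the members cannot be read from these counts. With the 18S signal 0 members were called in Bcl6 Trans (0.00807% of all genes) and 1 in Myc/Bcl6 tumours (1.92% of all genes).

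Lig4/P53 KO tumours, which were not sorted, were set against sorted pro-B cells, the stage that rearranges heavy chain genes. Sorting and tumour status cannot be told apart in this comparison. Lower were 7 members, with 21.1% of all genes called and 7.91% lower. Zfp36 fell by 2.32 ± 0.45 (4.98-fold; adjusted p = 0.000394), from 9.16, 9.34 and 9.39 to 6.24, 6.89 and 8.0 (lowest, median and highest tumour), and was the 1 member whose arrays did not overlap. The other 6 were Fos (-3.17 ± 0.81), Egr1 (-3.05 ± 0.92), Klf6 (-2.65 ± 0.83), Dusp1 (-2.50 ± 0.70), Atf3 (-1.29 ± 0.46) and Junb (-1.25 ± 0.39). Each of these 6 genes overlapped through pro-B replicate 1, the narrow array, alone. How many of all genes separate or overlap in this way was not counted. Without it the Fos difference was -4.63 (adjusted p = 0.000169) and that of Dusp1 -3.93 (adjusted p = 8.4e-05). Without pro-B replicate 2 or 3 only 2 members were called, while 26% and 23.7% of all genes were.

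In the same comparison Jun (-2.33 ± 0.92, adjusted p = 0.0674), Egr2 (-1.09 ± 0.55, adjusted p = 0.159) and Nr4a1 (-1.06 ± 0.67, adjusted p = 0.271) did not pass. In the wider early response list 13 fell and 0 rose, with Ppp1r15a (-3.18 ± 0.51), Fosb (-3.39 ± 0.63), Rhob (-3.61 ± 0.68), a small GTPase, and Ier5 (-1.73 ± 0.34) first. Of the upstream regulators 0 were called and 4 had an unadjusted p under 0.05. Granulocyte markers were lower in the tumours (8 of 9 called; summed level 9.98 to 12.55, against 14.23 to 14.47 in pro-B cells), and so were NK cell markers (7 of 7; 6.49 to 7.91 against 8.83 to 10.80) and T-cell markers (5 of 9; 7.06 to 7.47 against 8.61 to 10.06). Their part was not tested. With the 18S signal as a covariate 0 members and 0.0323% of all genes were called.

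Among the tumour groups single members parted. The 18S signals (4.15 to 6.15 in Lig4/P53 KO and 4.14 to 4.65 in Bcl6 Trans) overlapped through Lig4/P53 KO replicate 3 alone. Every other Lig4/P53 KO array was at 5.01 or above. The 3′ minus 5′ signals did not overlap (2.25 to 3.64 in Lig4/P53 KO and 3.65 to 4.60 in Bcl6 Trans), so both control signals differ between these groups. Zfp36 was higher in Lig4/P53 KO than in Bcl6 Trans tumours by 2.47 ± 0.41 (5.54-fold; adjusted p = 4.08e-05), with arrays at 7.22, 6.34, 8.0, 7.52, 6.55 and 6.24 against 4.5, 2.94, 4.41 and 6.19. Egr2 was lower by 2.87 ± 0.51 (7.31-fold; adjusted p = 8.34e-05), with arrays at 4.05 to 6.18 against 6.21 to 8.44. Atf3 was lower by 1.78 ± 0.42 (adjusted p = 0.00203), with overlapping arrays. The other 7 members did not pass, and 26.4% of all genes were called (15.5% higher, 10.9% lower). The Zfp36, Egr2 and Atf3 calls held under every alternative and every omitted array that was run, including the 18S and 3′ minus 5′ covariates.

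Other genes differed between these tumours as well. Stromal and vessel markers were lower in Lig4/P53 KO tumours (8 of 10 called) and so were 7 of 9 T-cell and 6 of 12 macrophage and dendritic cell markers, while 3 of 5 B-cell markers were higher; their part in the Zfp36, Egr2 and Atf3 differences was not tested. The second Egr2 probe set had means of 4.47 and 6.43 in these tumours, the same direction. In the wider early response list 9 were lower and 3 higher, with Socs3 (-3.82 ± 0.61) and Zfp36l2 (3.11 ± 0.63) first; Zfp36l2, like Zfp36, encodes a protein that binds AU-rich RNA.

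Myc/Bcl6 and Bcl6 Trans tumours differed in 1 member, Atf3, which was lower in Myc/Bcl6 by 1.72 ± 0.50 (adjusted p = 0.0444, arrays at 4.19, 4.85 and 3.90 against 6.35, 5.62, 4.57 and 7.61), where 3.91% of all genes were called (1.97% lower). The groups overlapped. The call was lost without Bcl6 Trans replicate 1 or 4 and without any of the 3 Myc/Bcl6 arrays (adjusted p of 0.058 to 0.209). Klf6 did not overlap (4.55, 4.28 and 6.0 against 6.79, 6.63, 7.87 and 8.35) but did not pass (-2.47 ± 0.90, adjusted p = 0.114). The 8 other members had differences of -1.38 to 0.73. In the wider list 1 gene fell, Btg1 (-2.98 ± 0.74).

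Over all tumours against all sorted stages, each group mean weighted equally, 9 members were lower, where 39.4% of all genes were called (20.6% lower). Egr2 did not pass (-0.44 ± 0.28, adjusted p = 0.219). The other Egr2 probe set had means of 6.43, 4.73 and 4.47 in Bcl6 Trans, Myc/Bcl6 and Lig4/P53 KO tumours. Its means in the sorted stages ran from 4.77 to 8.92, and it was not tested alone. No tumour was sorted and every other array was, so sorting and tumour status cannot be told apart. Zfp36 (-3.69 ± 0.23), Klf6 (-3.31 ± 0.43) and Fos (-3.21 ± 0.41) had the largest differences, and Atf3 (-0.65 ± 0.23) the smallest that passed. For Fos, Junb, Egr1, Zfp36 and Klf6 all 13 tumours were below all 17 sorted arrays without labelled plasma cells and narrow arrays. The count of such tumours was 12 for Dusp1, 11 for Jun, 6 for Atf3 and 5 each for Egr2 and Nr4a1. When the narrow sorted arrays were kept (19 sorted arrays), only Zfp36 had all 13 tumours below every sorted array. The lowest sorted array was then at 5.86 for Fos, 3.82 for Junb, 4.22 for Egr1 and 5.22 for Klf6. The highest tumours of these genes were at 7.88, 4.69, 8.66 and 8.35. The share of all genes that separate in this way was not counted. With the 18S signal as a covariate 0 members and 0% of all genes were called. Of the other early response genes 20 fell and 2 rose, of the upstream regulators 8 of 10 fell, and of the heat shock genes 2 fell and 1 rose. Of the markers of other cells, 7 of 10 stromal and vessel and 6 of 12 macrophage and dendritic cell markers were higher in the tumours, and 7 of 9 granulocyte, 6 of 7 NK cell, 3 of 9 T-cell and 3 of 5 B-cell markers were lower; their part was not tested.

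The labelled plasma cells and the tumours, the groups that share a low 18S signal, were compared directly in a comparison added after the member values were seen. In limma 0 members passed and 3 had an unadjusted p under 0.05, although 19.4% of all genes were called. Fos was higher in the tumours by 1.56 ± 0.74 (adjusted p = 0.139), Egr2 by 1.27 ± 0.51 (adjusted p = 0.0738), and Junb was lower by 0.78 ± 0.36 (adjusted p = 0.129). The calls with array weights (3 members) and without the narrow arrays (2 members) differ from this count. The shares of all genes called in these fits are not given here.

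**Figure D4:**
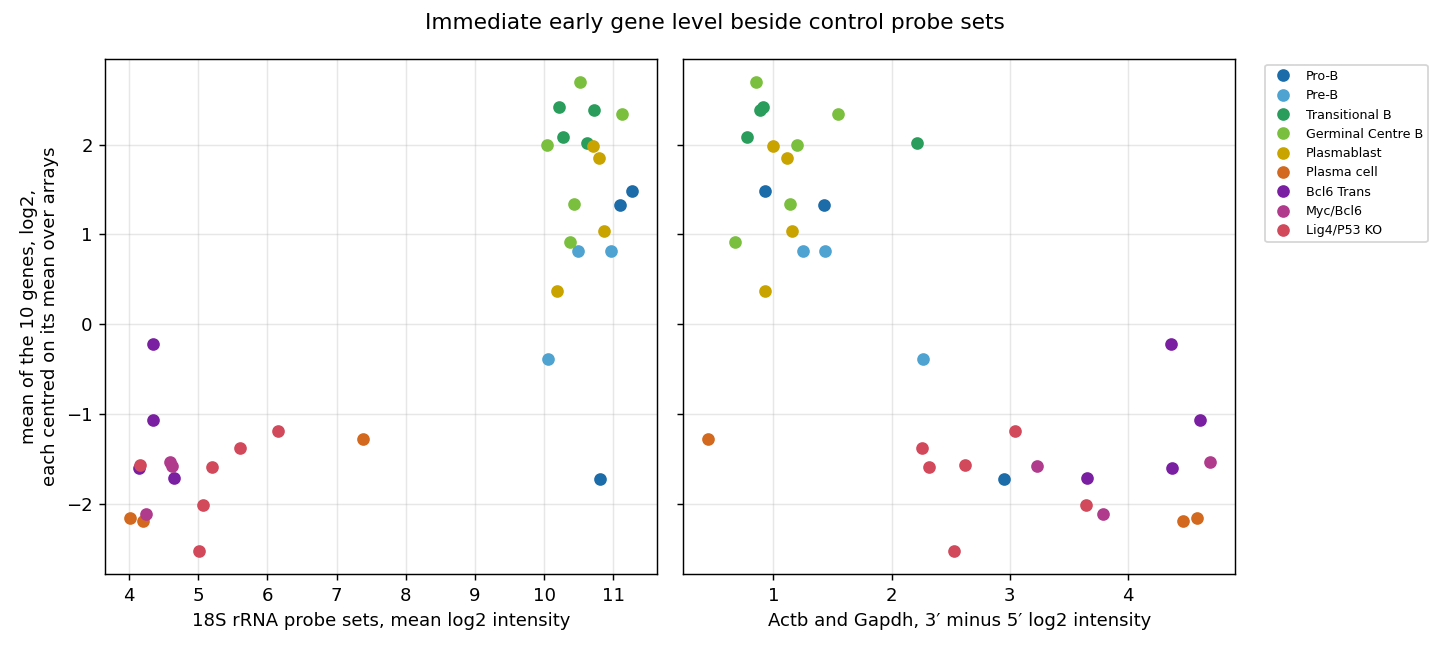
Mean level of the 10 immediate early genes on each array, each gene centred on its mean over the 35 arrays (vertical axis, log2), against the 18S rRNA control signal (left, log2) and the 3′ minus 5′ log2 signal of Actb and Gapdh (right); points are arrays, coloured by group. Arrays with an 18S signal of at most 7.38 lie at -0.22 or below, pro-B replicate 1 lies at -1.73 with a high 18S signal, and plasma cell replicate 3 lies at -1.28 with the lowest 3′ minus 5′ signal.

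The centred mean of the 10 members summarises each array. It was 2.02 to 2.42 in transitional, 0.92 to 2.70 in germinal centre and 0.37 to 1.98 in plasmablast arrays, and -2.52 to -0.22 over the 13 tumours. Pre-B arrays were at 0.81, -0.39 and 0.81, and pro-B arrays at -1.73, 1.48 and 1.33. Labelled plasma cells were at -2.16, -2.19 and -1.28. Outside the narrow arrays and the labelled plasma cells, every sorted array was above 0.

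The members followed each other closely. Over the 35 arrays the median Pearson correlation of 2 members was 0.751, with the highest for Egr1 and Klf6 (0.901) and the lowest for Egr2 and Zfp36 (0.287). Dusp1 (0.937) and Fos (0.921) were closest to the mean of the other 9 members, and Atf3 (0.58) and Egr2 (0.59) farthest. These arrays fall into a high and a low set and share control signals, so the values describe these arrays only. After each group's mean was removed the median was 0.473. In the 17 sorted arrays, with group means removed, it was 0.635, with the highest for Egr1 and Zfp36 (0.911) and the lowest for Atf3 and Klf6 (0.199).

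Outside the members, the genes closest to their mean over the 35 arrays were Sat1 (Pearson correlation 0.915), Lrrk2 (0.912), Tgoln1 (0.902), Ptk2b (0.902), Tes (0.895) and Dusp6 (0.892). Within groups they were Sqstm1 (0.812), Ppm1b (0.804), Rabl3 (0.799), Tmsb10 (0.799), H1f2 (0.798) and Rspry1 (0.793). Both lists depend on the arrays that stand apart. In the 17 sorted arrays within groups, a view added after the values were seen, they were Jund (0.926), an AP-1 subunit, Plk2 (0.911), a polo-like kinase, Fosb (0.875), a relative of Fos, Ier2 (0.858), Dnaja1 (0.841), a chaperone partner, and Gmppb (0.84). The list of other early response genes holds 4 of these 6: Jund, Plk2, Fosb and Ier2.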

How the data were processed

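The deposited values are log2 intensities per probe set that the authors made with RMA, per the submitters' processing notes (no version is given, nor whether all arrays were normalized in a single run). Per the labels, total RNA was extracted with Tripure, and the NuGen Ovation V2 kit amplified it before biotin labelling. Amplification from RNA that has been shortened favours 3′ ends, so intensities may depend on RNA quality. Arrays give no counts, and their number limits the precision. Of 22690 probe sets, 64 were controls, 1555 had no symbol and 691 had several, and these were not used; the brightest probe set was taken for the 4956 genes with more than 1, which left 12393 genes.

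Groups and replicates came from the labels. Overlap of array values was read for the members only, so the share of all genes without overlap is not known here. Contrasts were fitted in limma 3.58.1 (R 4.3.3) with empirical Bayes moderation, on the 22 sorted arrays for sorted stages and on all 35 arrays with tumours, and p-values were adjusted by Benjamini-Hochberg over all genes. The script was tested on simulated data. Summed marker levels are log2 of summed linear intensities. Named beside the members were up to 4 called genes of smallest p from a list of 40 other early response genes (36 measured); upstream regulators, heat shock genes and cell type markers were counted. The 6 genes most like the members were named by Pearson correlation. The members, lists and alternatives were chosen with earlier results of these data known. Replicate numbers were not treated as pairs in the main fits. Of 119 same-numbered pairs of deviations from group means, 23 had a correlation over 0.1 (range -0.491 to 0.493). Pairs with different numbers were not compared, so these values cannot show whether samples were paired. Alternatives were array weights, a mean over all probe sets per gene, quantile normalization done again, a filter on dim genes, only the groups compared, the replicate block, strain, 3′ minus 5′ signal and 18S signal as covariates, and left-out arrays; the 18S covariate, the fit with plasma cell replicate 3 alone and 2 comparisons were added after the data were seen. Python 3.11.15 with pandas 2.3.3 and matplotlib 3.10.9 was used. Gene and promoter coordinates are from RefSeq (GRCm38.p6). No genome sequence and no protein table were used here, and the promoter of Egr1 is not reported here.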

Additional observations from a re-analysis of the deposited data

Results flagged for a closer look

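In 50 pairs of a gene and a group of 4 to 10 arrays, the gap between the farthest array and its nearest neighbour passed Dixon's 95% limit in 3, where chance passes about 1 in 20. Fos in Bcl6 Trans tumours had 1 array at 7.17 (log2 intensity), and the nearest of the other 3 was at 5.52. Egr2 in Lig4/P53 KO tumours had 1 array at 6.18, and the next was at 4.77. Klf6 in Lig4/P53 KO tumours had 1 array at 5.02, and the next lowest was at 6.61. The calls for Fos and Egr2 in Bcl6 Trans against germinal centre B cells and in Lig4/P53 KO against Bcl6 Trans tumours kept their direction and their side of the threshold without these arrays.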

How the results depend on the processing

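Of 67 member values that passed in the report, all 67 kept their call and direction with the mean of all probe sets and without the 3 arrays of narrow spread, 66 with the filter on dim genes, 63 with the replicate block, 59 with renewed quantile normalization, 56 with array weights and 39 with the 3′ minus 5′ covariate; of 42 tested with only the groups compared, 34 did, and of 33 with plasma cell replicate 3 as the only plasma cell array, 19 did. The 4 calls lost with the replicate block were Egr1 in transitional against pre-B cells (adjusted p = 0.0967), Klf6 in plasma cells against plasmablasts (0.0511), Jun in Bcl6 Trans against germinal centre B cells (0.0649) and Atf3 in Myc/Bcl6 against Bcl6 Trans tumours (0.0945, which leaves 0 members called there). With the 18S covariate 13 values kept their call, 36 lost it and 18 changed direction, and the share of all genes called fell as well (0.00807% in Bcl6 Trans against germinal centre B cells). The 18S signal lies between the groups, so it and the group cannot be told apart.

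Counts of members called changed by over 1.5 times as follows. With array weights the counts were 0 for transitional against pre-B cells (5.12% of all genes), 1 for plasmablasts against germinal centre B cells and 3 for tumours against plasma cells. With the filter on dim genes, renewed quantile normalization or the strain covariate, germinal centre against transitional B cells gave 1. With only the groups compared it gave 5, plasmablasts against germinal centre B cells 1, Lig4/P53 KO against pro-B cells 1 and Myc/Bcl6 against Bcl6 Trans 0. With the 3′ minus 5′ covariate the counts were 4 for plasma cells against plasmablasts, 5 for spleen against bone marrow, 2 for Bcl6 Trans and 5 for Myc/Bcl6 against germinal centre B cells, 4 for Lig4/P53 KO against pro-B cells, 2 for Myc/Bcl6 against Bcl6 Trans and 4 for plasma cells against the 5 other stages. With the 18S covariate the percent of all genes called is in brackets. The counts were 0 for plasma cells against plasmablasts (0.888) and against the 5 other stages (0.742), and 2 for spleen against bone marrow (6.48). They were 0 for Bcl6 Trans (0.00807) and 1 for Myc/Bcl6 (1.92) against germinal centre B cells. Lig4/P53 KO against pro-B cells gave 0 (0.0323), tumours against sorted stages 0 (0) and tumours against plasma cells 1 (18). With plasma cell replicate 3 alone both plasma cell counts were 2. Without the narrow arrays Myc/Bcl6 against Bcl6 Trans and tumours against plasma cells each gave 2. For the other settings of this paragraph the share of all genes called is not given here. The cause of these changes was not tested.

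The 18 changed directions, all with the 18S covariate and none called, were these log2 differences. Plasma cells minus plasmablasts gave 0.55 for Jun, 1.23 for Klf6 and 0.052 for Dusp1, and plasma cells minus the 5 other stages 0.095 for Jun and 1.43 for Klf6. Bcl6 Trans minus germinal centre B cells gave 1.88 for Jun and 0.56 for Klf6, and Myc/Bcl6 minus germinal centre B cells 0.42 for Jun and 1.20 for Egr2. Lig4/P53 KO minus pro-B cells gave 0.37 for Fos, 0.42 for Atf3, 0.47 for Egr1, 1.54 for Klf6 and 0.53 for Dusp1. Tumours minus sorted stages gave 1.01 for Jun, 0.82 for Atf3, 0.30 for Egr1 and 0.30 for Klf6.

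Leaving out each array in turn gave these ranges of members called, with the percent of all genes called in brackets. Transitional against pre-B cells gave 3 to 4 (3.8 to 8.5) and germinal centre against transitional B cells 1 to 2 (7.59 to 11.6). Plasma cells against plasmablasts gave 4 to 8 (9.21 to 14.9), spleen against bone marrow 8 to 10 (14.7 to 24.1) and the F-test 7 to 10 (25.1 to 44). Against germinal centre B cells, Bcl6 Trans tumours gave 7 to 8 (18.8 to 26.6) and Myc/Bcl6 tumours 8 to 10 (36.9 to 44.9). Lig4/P53 KO gave 2 to 9 against pro-B cells (12.2 to 26) and 3 to 3 against Bcl6 Trans (16.7 to 27.5). Myc/Bcl6 against Bcl6 Trans gave 0 to 1 (0.96 to 11.2). Tumours gave 8 to 9 against sorted stages (37.4 to 47.7) and 0 to 1 against plasma cells (11.9 to 21.4). Plasma cells against the 5 other stages gave 6 to 9 (11.5 to 26.8). The counts stayed at 0 for pre-B against pro-B cells (0.145 to 0.734) and for plasmablasts against germinal centre B cells (0.25 to 0.888).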
